A study of Mus musculus with 6 samples.

Results

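Respiratory complex I was studied in mouse liver through the 47 genes whose symbol begins with Nduf, out of 52459 genes counted by RNA-Seq. By their names, 37 of them are subunits (Nduf followed by a, b, c, s or v and a number) and 8 are assembly factors (Ndufaf). The remaining 2, Ndufab1 and the pseudogene row Ndufab1-ps, have neither form of name. Membership rested on the symbol alone. All 47 genes passed the filter on low counts, with 93 to 15199 counts per liver, so none was left out of the test, and they lie on 17 chromosomes.

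The livers came from 6 male C57BL6J mice of the Alb-Cre/Cas9 F1 generation, in which Cre driven by the albumin promoter limits Cas9 largely to hepatocytes. In the sgCtrl group, 3 mice (5.1, 7.1 and 7.2) carried the vector AAV8-U6-sgCtrl with a control guide RNA, and in the sgPrdx2 group 3 mice (1.1, 1.3 and 3.2) carried AAV8-U6-sgPrdx2 with a guide RNA against Prdx2, which encodes the hydrogen peroxide-removing enzyme peroxiredoxin 2. Both groups got the vector by vein at 4 to 5 weeks of age, the liver carcinogen diethylnitrosamine (DEN, 100 mg/kg) 3 weeks after it, and then, starting 1 week after DEN, the fatty liver diet CDAHFD, which lacks choline, for 6 months. All mice were 8 months old, and neither group was free of DEN or of the diet. One library per mouse was made from whole liver RNA, so cells without Cas9 and cells that the vector did not reach contributed to each value.

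RNA of the targeted gene did not separate the groups. Prdx2 had 109, 117 and 132 normalized CPM (counts scaled to the size of the library) in sgCtrl livers 5.1, 7.1 and 7.2, against 99.0, 112 and 149 in sgPrdx2 livers 1.1, 1.3 and 3.2. The groups overlapped, with a log2 fold change of 0.01 (SE 0.18, adjusted p = 0.983, edgeR quasi-likelihood test). Small insertions and deletions at a Cas9 cut can leave RNA abundance as it was, so the labels could not be checked from this value. Total counts were 37462102 to 56865293 per liver. The 15 hepatocyte markers were all detected in every liver.

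Complex I (NADH:ubiquinone oxidoreductase) takes electrons from NADH, passes them through a flavin and a chain of iron-sulfur clusters to ubiquinone, and pumps protons across the inner mitochondrial membrane. Its matrix arm holds the electron path, and its membrane arm holds the proton pumps, which are encoded by mitochondrial DNA. Around this core sit many accessory subunits from nuclear genes, and assembly factors build the complex but are not part of it. In hepatocytes, the complex oxidizes the NADH that fatty acid oxidation and the citric acid cycle produce.

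Reference promoter sequences were examined because the genes moved together. RefSeq windows from 250 bases before to 50 bases after the start (GRCm38.p6) were found for 40 of the 47 genes. They were searched on both strands for short motifs of factors known at many housekeeping and mitochondrial genes: GCGCANGCG for NRF1, CCGGAA for the ETS family and AAGATGGC for YY1. The windows below run from 120 bases before to 30 bases after the start, in the direction of the gene, with motif letters in capitals. They show the core subunits Ndufv1 (chr19:4012726-4012875, minus strand) and Ndufs3 (chr2:90904692-90904841, minus strand), Ndufa8, the accessory subunit with the smallest fold change (chr2:36049309-36049458, minus strand), Ndufa13, with the largest fold change of all 47 (chr8:69901991-69902140, minus strand), the next in size, Ndufc1 (chr3:51408926-51409075, minus strand) and Ndufa4 (chr6:11907421-11907570, minus strand), and the assembly factor Ndufaf8 (chr11:120098814-120098963, plus strand).
Ndufv1: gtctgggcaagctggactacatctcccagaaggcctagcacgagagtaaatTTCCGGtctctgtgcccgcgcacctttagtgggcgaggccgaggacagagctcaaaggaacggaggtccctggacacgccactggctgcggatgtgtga
Ndufs3: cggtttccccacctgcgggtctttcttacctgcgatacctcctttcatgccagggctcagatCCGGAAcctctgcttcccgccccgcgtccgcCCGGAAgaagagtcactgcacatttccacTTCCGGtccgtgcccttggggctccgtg
Ndufa8: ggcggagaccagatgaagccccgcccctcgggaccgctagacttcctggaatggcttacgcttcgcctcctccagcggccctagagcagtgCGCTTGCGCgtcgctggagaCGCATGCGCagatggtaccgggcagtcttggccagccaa
Ndufa13: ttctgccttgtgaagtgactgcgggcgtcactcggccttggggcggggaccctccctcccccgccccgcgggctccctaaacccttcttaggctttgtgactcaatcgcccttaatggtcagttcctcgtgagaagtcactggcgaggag
Ndufc1: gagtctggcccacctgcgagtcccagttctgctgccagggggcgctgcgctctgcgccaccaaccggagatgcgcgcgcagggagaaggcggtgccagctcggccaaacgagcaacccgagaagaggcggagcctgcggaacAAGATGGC
Ndufa4: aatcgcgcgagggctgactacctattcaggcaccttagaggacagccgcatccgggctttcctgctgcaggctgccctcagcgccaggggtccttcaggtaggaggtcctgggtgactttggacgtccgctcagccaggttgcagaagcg
Ndufaf8: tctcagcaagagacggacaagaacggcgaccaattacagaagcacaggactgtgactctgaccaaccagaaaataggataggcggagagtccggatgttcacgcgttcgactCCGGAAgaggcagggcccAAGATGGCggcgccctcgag

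The ETS motif lies 69 to 64 bases before the start on the opposite strand in Ndufv1, and at 3 places in Ndufs3. Ndufa8 holds the NRF1 motif in 2 places, Ndufc1 the YY1 motif at bases 23 to 30 after the start, and Ndufaf8 both the ETS and the YY1 motif. None of the 3 motifs was found in the windows of Ndufa13 and Ndufa4. The Ndufa13 window shown lies inside the gene as annotated in GENCODE M21, which begins at chr8:69902558. Sequence before that position is not shown. Ndufs3 (from chr2:90904827) and Ndufa8 (from chr2:36049406) also begin earlier there than the start used here. The motifs marked in their windows therefore lie inside the gene as annotated in GENCODE M21. Over the 40 genes with a window, the NRF1 motif was present in 10 (25%, against 13.7% of the 11763 tested genes with a window), the ETS motif in 12 (30%, against 28.3%) and the YY1 motif in 8 (20%, against 4.78%). The median log2 fold change was 0.62 for the 26 genes with at least 1 of the motifs and 0.58 for the 14 with none. Over all tested genes that hold the motif, it was 0.02 for NRF1, 0.02 for ETS and 0.01 for YY1. A match to letters does not show that a factor binds.

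Relative to the other genes, complex I RNA was higher in sgPrdx2 than in sgCtrl livers. However, every Nduf gene was lower when libraries were instead scaled to the summed counts of hepatocyte markers, most of them from Alb (albumin). Under TMM normalization, which sets the typical gene to no change, all 47 Nduf genes had a log2 fold change above 0 (48.3% of the 17032 genes tested did). The median was 0.58, with a range from 0.22 for Ndufs1 to 0.81 for Ndufa13, beside a median of -0.02 for all genes tested. For 41 of the 47, each sgPrdx2 liver lay above each sgCtrl liver (16.7% of all genes tested). No Nduf gene passed an adjusted p of 0.05 in edgeR's quasi-likelihood test (3.33% of all genes did in either direction, and 1.79% as higher), 13 passed 0.1 as higher (5.66% of all genes), and 41 had an unadjusted p under 0.05 as higher (13.0%). DESeq2 called 29 of the 47 higher at an adjusted p under 0.05 (7.58% of the genes for which it gave an adjusted p). The 29 were 4 core subunits, 5 accessory subunits of the matrix arm, 16 of the membrane arm, 3 assembly factors and Ndufa4.

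**Figure D1:**
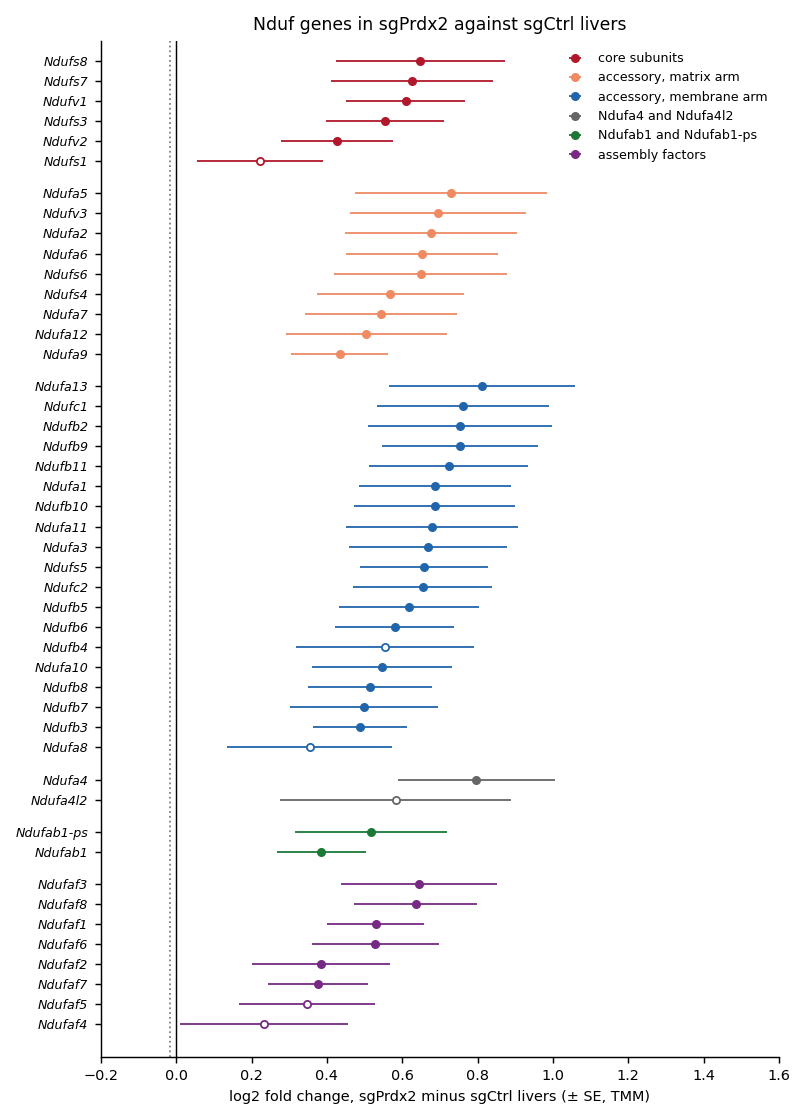
Log2 fold change (sgPrdx2 minus sgCtrl livers, n = 3 each, TMM normalization) of each Nduf gene, apart from a gene not reported here, with its standard error from edgeR, grouped by role. Filled points are genes whose groups did not overlap, open points the 6 whose groups did, and the dotted line is the median of all genes tested (-0.02). All points lie above 0 under TMM; scaled to hepatocyte markers, all lay below 0.

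Summed over the 47 genes, expression was 2815, 2829 and 3091 normalized CPM in sgCtrl livers 5.1, 7.1 and 7.2, and 3932, 3659 and 5644 in sgPrdx2 livers 1.1, 1.3 and 3.2. The mean was 1.52 times higher in the sgPrdx2 group (4412 ± 1076 against 2912 ± 155.5 normalized CPM, SD, n = 3 each), and liver 3.2 stood well above livers 1.1 and 1.3. This rise was not particular to complex I. Under the same scaling, the sum over all genes tested was 1.299 times higher, and that over all genes under 750 bases 1.639 times. As a share of all counts in a library, without TMM, the 47 Nduf genes took 0.329% (95% Wilson interval 0.327% to 0.331%), 0.317% (0.315% to 0.319%) and 0.348% (0.346% to 0.349%) in sgCtrl livers, and 0.348% (0.346% to 0.349%), 0.348% (0.346% to 0.350%) and 0.454% (0.452% to 0.456%) in sgPrdx2 livers. These intervals cover counting error only. By share of counts, livers 1.1 and 1.3 were therefore level with sgCtrl liver 7.2, and liver 3.2 was above all the others.

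The 7 nuclear-encoded core subunits, most of which carry the flavin or iron-sulfur clusters, had a median log2 fold change of 0.55. In 6 of them the groups did not overlap (16.7% of all genes, as higher). Ndufv1 binds NADH and the flavin, and its expression was 139, 142 and 151 normalized CPM in sgCtrl livers (in the order 5.1, 7.1, 7.2, used throughout) and 214, 185 and 261 in sgPrdx2 livers (1.1, 1.3, 3.2). Each sgPrdx2 liver thus lay above each sgCtrl liver, with a log2 fold change of 0.61 (SE 0.16, adjusted p = 0.0725, edgeR; DESeq2 adjusted p = 0.00646). Its partner Ndufv2, with an iron-sulfur cluster beside the flavin, had 86.5, 79.8 and 89.4 against 104, 104 and 135 normalized CPM (log2 fold change 0.43, SE 0.15, adjusted p = 0.135).

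Ndufs1, the large iron-sulfur subunit at the tip of the matrix arm, departed from the rest in liver 3.2. Its expression was 79.1, 91.3 and 82.7 normalized CPM in sgCtrl and 115, 102 and 78.3 in sgPrdx2 livers, so that livers 1.1 and 1.3 were higher than every sgCtrl liver and liver 3.2 was lower than every one (log2 fold change 0.22, SE 0.17, adjusted p = 0.439). For Ndufv1, Ndufv2, Ndufs3, Ndufs7 and Ndufs8, liver 3.2 was instead the highest of its group. Without liver 3.2, the log2 fold change of Ndufs1 was 0.37 without overlap, and the core median was also 0.37.

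Ndufs7 and Ndufs8 carry the clusters that hand electrons on to ubiquinone. Ndufs7 had 68.3, 62.8 and 69.5 against 85.5, 83.6 and 141 normalized CPM (log2 fold change 0.63, SE 0.21, adjusted p = 0.131), and Ndufs8 had 66.4, 68.2 and 80.8 against 98.0, 86.3 and 153 (0.65, SE 0.22, adjusted p = 0.134). Ndufs3, a matrix arm subunit without a cluster, had 43.6, 43.1 and 48.9 against 61.8, 57.1 and 80.2 (0.55, SE 0.16, adjusted p = 0.0889). In all 3 the groups did not overlap, and liver 3.2 was far above livers 1.1 and 1.3.

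**Figure D2:**
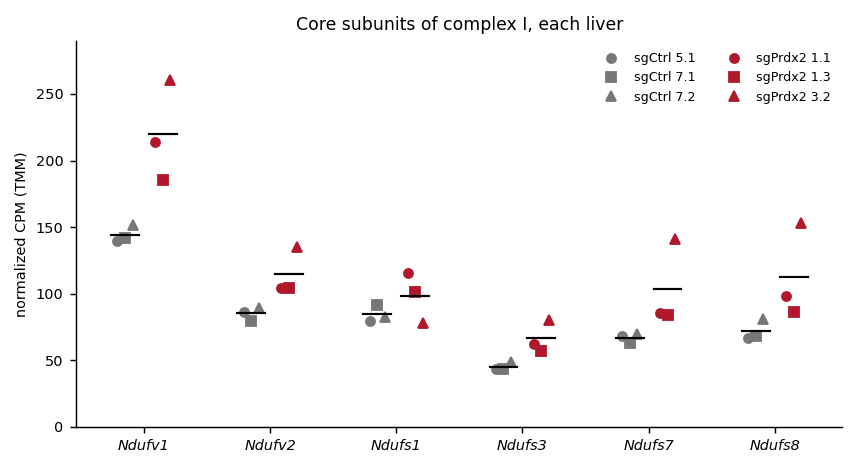
Normalized CPM (TMM) of 6 core subunits in each of the 6 livers, with a symbol per mouse and a bar at each group mean. The sgPrdx2 livers lie above the sgCtrl livers except for Ndufs1, where liver 3.2, at 78.3, is below all 3 sgCtrl livers; scaled to hepatocyte markers, the fold change of each was below 0.

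In all 9 accessory subunits of the matrix arm, each sgPrdx2 liver lay above each sgCtrl liver under TMM. Their median log2 fold change was 0.65, and none was called by edgeR. DESeq2 called 5 of the 9 higher (7.58% of all genes with an adjusted p). All 9 had an unadjusted edgeR p under 0.05 (13.0% of all genes, as higher). Ndufa9, an accessory subunit near the ubiquinone site, changed least of them, with 87.4, 97.1 and 94.3 against 132, 113 and 132 normalized CPM (0.43, SE 0.13, adjusted p = 0.0988). Ndufa5 had the largest fold change of the 9 (0.73, SE 0.26, adjusted p = 0.136). Ndufs4 and Ndufs6, which join late in assembly, were at 0.57 and 0.65.

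The membrane arm held 4 of the 5 largest fold changes among subunits. Its 19 accessory subunits had a median log2 fold change of 0.66, and 17 of them separated the groups (16.7% of all genes, as higher). Ndufa13, also known as GRIM-19, had 112, 119 and 135 normalized CPM in sgCtrl and 177, 162 and 304 in sgPrdx2 livers (0.81, SE 0.25, adjusted p = 0.103), and 30% of its transcript overlaps Tssk6 on the opposite strand. Ndufc1, a small membrane subunit, had 26.6, 29.9 and 31.4 against 40.2, 39.5 and 69.7 (0.76, SE 0.23, adjusted p = 0.1). Ndufb9, a matrix-facing subunit of the far membrane arm, had 124, 133 and 143 against 197, 179 and 298 (0.75, SE 0.21, adjusted p = 0.0824). In all 3, livers 1.1 and 1.3 were close to each other and liver 3.2 was far above both. Ndufb2 was at 0.75 (SE 0.24, adjusted p = 0.117), with 23.5, 24.4 and 27.7 against 33.4, 33.2 and 61.1 normalized CPM.

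A pair of membrane arm subunits overlapped between groups. Ndufa8, which faces the intermembrane space, had 119, 100 and 115 normalized CPM in sgCtrl and 117, 116 and 194 in sgPrdx2 livers (0.35, SE 0.22, adjusted p = 0.348), and only liver 3.2 exceeded the sgCtrl livers. Ndufb4 had 22.3, 22.2 and 29.6 against 29.2, 29.4 and 50.4 (0.55, SE 0.24, adjusted p = 0.197), where sgCtrl liver 7.2 was level with sgPrdx2 livers 1.1 and 1.3. Of the 50-base stretches of its transcript, 37% also occur in other genes, Ndufb4c among them, so part of its reads could be placed elsewhere.

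Ndufa4 and Ndufa4l2 bear complex I names, but Ndufa4 is a subunit of complex IV and Ndufa4l2 is its hypoxia-inducible paralog. Per length, Ndufa4 was the most abundant of the 47 in both groups, at 330 normalized CPM per kilobase of transcript in sgCtrl and 573 in sgPrdx2 livers. Its values were 199, 201 and 204 normalized CPM in sgCtrl livers, nearly equal, and 303, 279 and 467 in sgPrdx2 livers (log2 fold change 0.80, SE 0.21, adjusted p = 0.0727; DESeq2 adjusted p = 0.0044). Ndufa4l2 was the least abundant per length, at 2.57 and 3.87 normalized CPM per kilobase. It had 2.12, 2.85 and 2.23 against 3.14, 2.42 and 5.28 normalized CPM (0.58, SE 0.31, adjusted p = 0.277), and its groups overlapped.

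Ndufab1 is the mitochondrial acyl carrier protein, which is also part of complex I. It had 21.3, 22.6 and 22.9 against 26.8, 28.1 and 32.4 normalized CPM (0.39, SE 0.12, adjusted p = 0.106). The row Ndufab1-ps was at 0.52 (SE 0.20, adjusted p = 0.167), and since 74.2% of its 50-base stretches also occur in other genes, Ndufab1 among them, the 2 rows cannot be taken as independent. In all, 14 of the 47 genes share at least 10% of such stretches with another gene, Ndufa13 (28.5%), Ndufb9 (23.4%) and Ndufs3 (39.7%) included. Their median log2 fold change was 0.60, beside 0.58 for the other 33.

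The 8 assembly factors had 5.28 to 14.8 normalized CPM per kilobase of transcript in sgCtrl livers, and the 37 subunits 2.57 to 330. Their median log2 fold change was 0.46, beside 0.63 for the subunits, and this difference was not tested. Ndufaf1, of the assembly complex that builds the membrane arm, had 18.8, 21.8 and 23.6 against 32.4, 28.4 and 31.9 normalized CPM (0.53, SE 0.13, adjusted p = 0.065; DESeq2 adjusted p = 0.0137). Liver 3.2 did not stand apart there, and the fold change was 0.52 without it. Ndufaf8, the partner of Ndufaf5, had 8.45, 9.12 and 9.15 against 12.7, 12 and 16.9 (0.64, SE 0.16, adjusted p = 0.0709). Ndufaf3, which acts in assembly of the ubiquinone module, had 13.1, 12.8 and 12.4 against 17.9, 15.3 and 26.8 (0.64, SE 0.21, adjusted p = 0.116). These 3 had the largest fold changes of the assembly factors, and all separated the groups.

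At the other end were Ndufaf4, Ndufaf5 and Ndufaf7. Ndufaf4, the partner of Ndufaf3, had 29.2, 20.5 and 19.9 against 23.8, 22.6 and 35.7 normalized CPM (0.23, SE 0.22, adjusted p = 0.54), and without liver 3.2 its fold change was 0.01. Ndufaf5, an arginine hydroxylase of Ndufs7, had 6.19, 5.49 and 6.79 against 7.36, 6.73 and 9.46 (0.35, SE 0.18, adjusted p = 0.275). The groups overlapped for both genes. Ndufaf7, an arginine methyltransferase, had 17.4, 17.9 and 19.5 against 22.4, 21.5 and 27.1 (0.38, SE 0.13, adjusted p = 0.14) without overlap. Ndufaf2 and Ndufaf6 were at 0.38 and 0.53, and 65.6% of the Ndufaf2 transcript overlaps a gene on the opposite strand. For it, Ndufa13 and Ndufb6 (39%), reads of the opposite gene cannot be told apart without strand information, which the sources used here do not give.

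Assembly factors that do not carry the Nduf name are a wider list. Of 13 counted, 12 had a log2 fold change above 0 (48.3% of all genes) and 10 separated the groups as higher (16.7%). The median of the 13 was 0.34, and -0.62 when scaled to hepatocyte markers. Only 1 was called higher by edgeR (1.79% of all genes), Atp5sl (0.63, SE 0.12, adjusted p = 0.0445). Atp5sl is an assembly factor of the far membrane arm and had 30.4, 29.8 and 32.3 against 45.8, 43.9 and 53.3 normalized CPM, with all 3 sgPrdx2 livers above every sgCtrl liver. Of the partners of Ndufaf1 in the assembly complex of the membrane arm, Ecsit had 33.3, 33.5 and 35.9 against 51.0, 44.5 and 64.4 (0.64, adjusted p = 0.0637), Timmdc1 was at 0.55 (adjusted p = 0.112) and Tmem126b at 0.34 (adjusted p = 0.125). Acad9, also of this assembly complex, had 28.6, 39.4 and 31.1 against 43.4, 35.0 and 23.9 (0.05, adjusted p = 0.915), with liver 3.2 below every sgCtrl liver as it was for Ndufs1. The others were Aifm1 (0.51), Nubpl, which delivers iron-sulfur clusters (0.44), Tmem126a (0.39), Foxred1 (0.33), Bcs1l (0.32), Tmem70 (0.23), Chchd4 (0.08) and Tmem186 (-0.08), none of them called.

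The proton-pumping subunits encoded by mitochondrial DNA also had higher values under TMM. Liver 3.2 was the highest of its group for mt-Nd3 and mt-Nd4 and the lowest for mt-Nd1, mt-Nd2 and mt-Nd5. All 6 of those tested had a log2 fold change above 0 (median 0.83, with 48.3% of all genes above 0). The groups were separated in 5 (16.7% of all genes, as higher), and 2 were called higher (1.79%). With hepatocyte-marker scaling, however, 5 of the 6 were below 0, all but mt-Nd3 (median -0.12). mt-Nd1 had 4532, 5312 and 4390 normalized CPM in sgCtrl and 8083, 7184 and 6925 in sgPrdx2 livers (0.64, SE 0.17, adjusted p = 0.0722), and mt-Nd2 had 3467, 4749 and 3324 against 7543, 6641 and 6160 (0.82, SE 0.20, adjusted p = 0.0633). mt-Nd4 had 2566, 3661 and 3135 against 5436, 5530 and 5894 (0.85, SE 0.18, adjusted p = 0.0491) and was called higher. In each of these genes the groups were well separated and liver 3.2 was within the range of, or near, the other sgPrdx2 livers.

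mt-Nd5 overlapped between groups, with 2379, 3017 and 2414 against 3883, 3635 and 2803 normalized CPM (0.40, SE 0.19, adjusted p = 0.236). mt-Nd6, encoded on the other strand of mitochondrial DNA, was low at 6.53, 5.38 and 7.15 against 10.4, 12.5 and 12.4, and was called higher (0.89, SE 0.16, adjusted p = 0.0409). mt-Nd3 was counted only 12 to 54 times per liver, with 0.343, 0.267 and 0.609 against 0.843, 0.832 and 1.66 normalized CPM (1.41, SE 0.42, adjusted p = 0.101). It separated the groups, with liver 3.2 far above livers 1.1 and 1.3. mt-Nd4l was counted 1 to 14 times, too few to be tested. Without liver 3.2, the median of the 6 was 0.84, and that of the 47 Nduf genes was 0.39.

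The other respiratory complexes gave similar values to complex I. Medians of log2 fold changes were 0.48 for the 4 genes of complex II, 0.67 for 10 genes of complex III, 0.62 for 16 of complex IV, 0.62 for 18 of complex V and 0.41 for 79 proteins of the mitochondrial ribosome, beside 0.58 for the Nduf genes. In each of these 5 groups at most 1 gene had a log2 fold change below 0, and 0, 0, 0, 1 and 1 genes were called higher by edgeR, in that order. DESeq2 called 3, 7, 10, 15 and 8 of them higher, and 3, 7, 11, 16 and 40 had an unadjusted edgeR p under 0.05 as higher. Of all genes, 1.79% were called higher by edgeR, 7.58% by DESeq2, and 13.0% had such an unadjusted p. The calls for the mitochondrial ribosome (1 and 8 of 79) were thus near the share of all genes. Complex V was selected by names beginning with Atp5, which took in Atp5sl, the assembly factor described above. Atp5sl is the gene that edgeR called in that group. Enzymes other than complex I that feed electrons to ubiquinone, complex II among them, were counted for 12 genes. Of these, 11 were above 0 (median 0.48), and Sqor, the sulfide:quinone oxidoreductase, was called (132, 144 and 151 against 243, 217 and 263 normalized CPM, 0.76, SE 0.14, adjusted p = 0.0409). Gpd2, the mitochondrial glycerol 3-phosphate dehydrogenase, was lower in each sgPrdx2 liver (43.9, 40.0 and 35.2 against 31.5, 29.9 and 23.8; -0.48, SE 0.15, adjusted p = 0.106). All of these directions are under TMM; scaled to hepatocyte markers, the medians of complexes II to V and of the mitochondrial ribosome were -0.49, -0.33, -0.36, -0.37 and -0.58, and that of the 12 genes was -0.49.

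**Figure D3:**
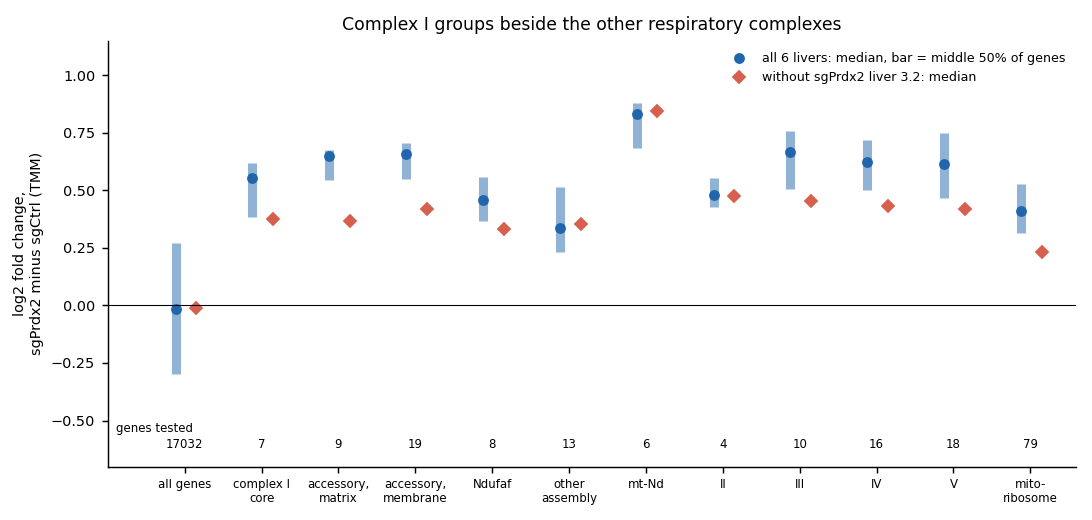
Median log2 fold change (sgPrdx2 minus sgCtrl livers, TMM) of complex I groups, of complexes II to V and of the mitochondrial ribosome, with the middle 50% of genes as a bar and the number of genes tested below. Diamonds are medians without sgPrdx2 liver 3.2; they lie lower for the nuclear Nduf groups (0.39 over all 47) but not for mt-Nd genes (0.84), and scaled to hepatocyte markers every one of these group medians was below 0.

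Liver 3.2 and transcript length moved with the result. Relative to the sgCtrl mean, the median Nduf gene was 0.44 higher in liver 1.1, 0.32 in liver 1.3 and 0.96 in liver 3.2 on the log2 scale. Across all 16554 genes with a length and a value in liver 3.2, the difference from the sgCtrl mean fell with the logarithm of transcript length (Spearman's rho -0.48, across genes of 1 library, which are not independent replicates), and rho was -0.15 in liver 1.1 and -0.14 in liver 1.3. Complex I genes are short: the median Nduf transcript has 934 bases and the median of all genes tested 2670. Across the 47 Nduf genes, which share all 6 libraries, rho between length and fold change was -0.33 with all livers and -0.16 without liver 3.2.

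By median log2 fold change, Nduf genes still lay above all genes within classes of length, but by summed expression only in the longest class. For transcripts under 750 bases, the median log2 fold change was 0.65 for 17 Nduf genes and 0.27 for all 1217 genes, and without liver 3.2 it was 0.41 and 0.07 (0.065). For the longest of 3 classes, from 1251 bases up, it was 0.53 for 15 Nduf genes and -0.06 for all 13685 genes, and 0.39 and -0.03 without liver 3.2. Length was not matched there, with a median of 1697 bases for Nduf genes and 3091 for all genes. In the middle class the medians of log2 fold changes were 0.58 and 0.24. Summed normalized CPM of Nduf genes under 750 bases rose 1.59-fold from the sgCtrl to the sgPrdx2 mean, and that of all such genes 1.639-fold. These ratios were 1.505 and 1.547 in the middle class, and 1.44 and 1.257 in the longest. A correction of each library for length and GC content gave a median of 0.38 for the 47 genes, all 47 still above 0, with 39 separated (18.9% of all genes) and 25 with an adjusted p under 0.1 as higher (8.84% of all genes). One of these, Ndufaf1, then passed 0.05 (adjusted p = 0.0447). After this correction, rho between length and fold change was -0.006 across all genes but 0.33 across the 47 Nduf genes. The relation among the Nduf genes was thus reversed, not removed. The gene Ndufb2, with a transcript of 4371 bases, moved from 0.75 to 1.03. Without liver 3.2 and without this correction, 42 of the 47 separated the groups (23.1% of all genes), 25 had an adjusted p under 0.1 as higher (6.45%) and none passed 0.05.

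**Figure D4:**
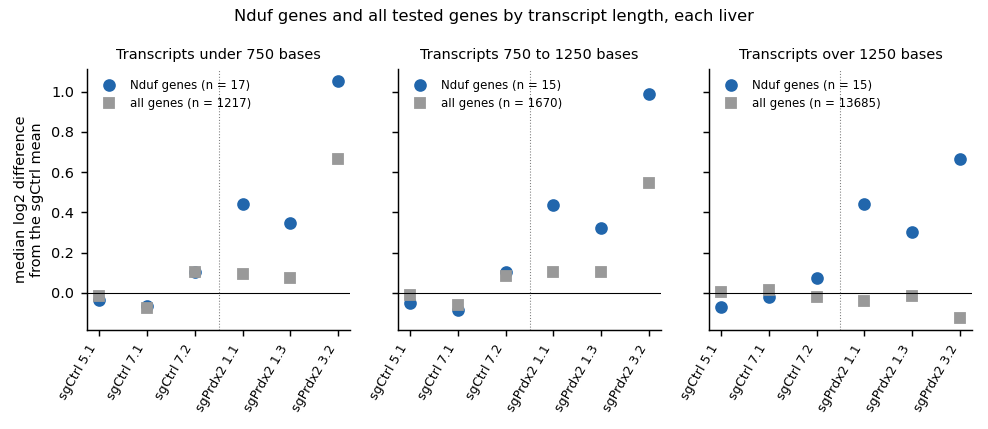
Median log2 difference from the sgCtrl mean in each of the 6 livers (TMM), for Nduf genes (circles) and all tested genes (squares) in 3 classes of transcript length. In livers 1.1 and 1.3 the Nduf median is 0.31 to 0.44 in each class with the median of all genes at 0.11 or below, and in liver 3.2 short genes as a whole are raised (0.67 under 750 bases) while Nduf genes are at 1.05. Under hepatocyte-marker scaling the Nduf genes as a whole were lower in sgPrdx2 livers.

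Hepatocyte markers moved with complex I as well. All 15 had a log2 fold change above 0 (median 0.96, with 48.3% of all genes above 0). Of these markers, 13 separated the groups (16.7% of all genes, as higher) and 8 were called higher (1.79%). Their sum was 88870 to 98800 normalized CPM in sgCtrl and 155600 to 208600 in sgPrdx2 livers. All 6 cholangiocyte, 7 macrophage and 7 stellate or fibroblast markers were below 0 (medians -0.41, -0.56 and -0.50). Among them, 1 macrophage marker was called lower (262 of all 17032 genes tested were). The medians given are of log2 fold changes. The sums of these 3 marker lists were 1630 to 1858, 1222 to 1658 and 2186 to 2522 normalized CPM in sgCtrl livers. In sgPrdx2 livers they were 1217 to 1393, 872 to 899 and 1582 to 1636. Endothelial markers were at a median of -0.52 (5 of 6 below 0, 1 called lower), lymphocyte markers at -0.19 (6 of 7, 1 called lower), the 4 tested neutrophil markers at -0.14 (3 of 4) and erythroid markers at -0.25 (4 of 5). Only Ly6g, a neutrophil marker too low to be tested, was at 0 counts in any liver. In whole tissue, a change in the number of cells of a type cannot be told apart from a change in RNA per cell, and the part of these markers' cell types, of transcript length and of liver 3.2 in the complex I values was not tested.

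The direction therefore depended on the reference. With library totals alone, the median of all genes was -0.39 and that of Nduf genes 0.20. Of the 47 Nduf genes, 41 were above 0 (18.8% of all genes) and 13 separated the groups as higher (4.33%). A change of scaling alone moves every gene by about the same amount, so the distance between the medians was kept by construction. Hepatocyte-marker scaling used the summed counts of the 15 markers, most of them from Alb. Alb held 59260 of 88870 normalized CPM in sgCtrl liver 5.1 and 127700 of 190800 in sgPrdx2 liver 1.1. Its own log2 fold change under TMM was 0.97. With libraries scaled to the hepatocyte markers, the median of all genes was -0.98 and that of Nduf genes -0.41. All 47 were below 0, 17 were called lower (78.7% of all genes were) and 26 separated the groups as lower (81.3% of all genes). Nduf genes thus lay above the typical gene and below the typical hepatocyte marker. A change of scaling alone could not alter this order.

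**Figure D5:**
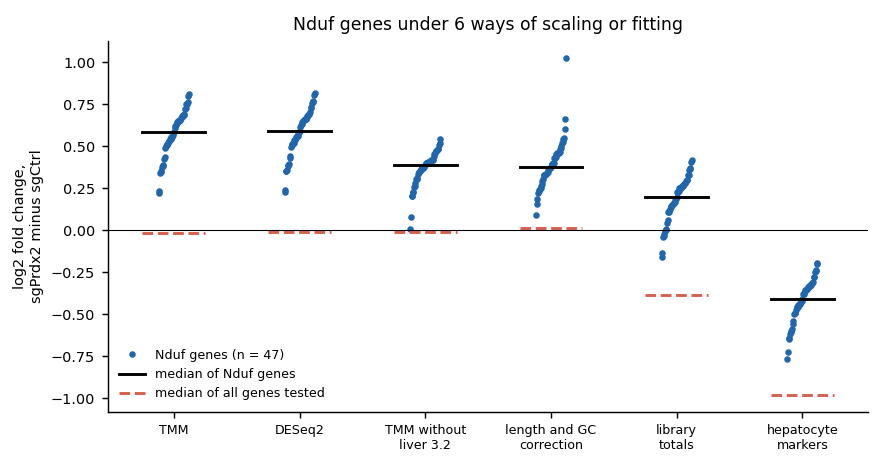
Log2 fold change (sgPrdx2 minus sgCtrl) of each of the 47 Nduf genes under 6 ways of scaling or fitting, with their median (solid bar) and the median of all genes tested (dashed bar). The Nduf median is above 0 in 5 of them, from 0.20 to 0.59, and at -0.41 with hepatocyte-marker scaling, and it is above the median of all genes in each. Library totals and hepatocyte-marker scaling move all genes about alike, so they could not change that order.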

How the data were processed

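Whole-liver RNA-Seq of 3 sgCtrl and 3 sgPrdx2 mice was used, with groups taken from the sample labels. The authors deposited whole-number read counts per gene without normalization. The submitters' processing notes name HISAT2, HTSeq, DESeq2 and GRCm38; versions, annotation and strandedness are not given in the sources used here. The authors' own comparison table (group mean, fold change, error, statistic and p-values) was not used.

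The counts were fitted with edgeR 4.0.16 (R 4.3.3): filterByExpr (minimum count 10) kept 17032 of 52459 genes, TMM normalization, and the quasi-likelihood test over all 6 livers without covariates. A gene was called at an adjusted p (Benjamini-Hochberg, over all genes) under 0.05. Biological coefficient of variation was estimated at 0.213, and 3 counts stood for 0.0555 to 0.0921 normalized CPM. No 2 libraries agreed within sampling noise (chi-square per degree of freedom of at least 31.9). The labels give a mouse per liver but no batch, so p-values measure the spread between these mice. Mice 7.1 and 7.2, and 1.1 and 1.3, share the first number of their label and 5.1 and 3.2 do not; the labels do not say what it marks, so a shared cage or litter was not tested. The standard error was taken as the absolute log2 fold change over the root of its F statistic.

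Alternatives were DESeq2 1.42.0, RLE, upper-quartile, library-total and hepatocyte-marker scaling, other filters, an adjusted p of 0.1, leaving out each liver and a spline correction for length and GC content (16572 genes). Length correction alone was added after seeing the data. Lengths came from GENCODE M21 (GRCm38; 1 principal transcript per gene), which need not be the annotation the authors used, and promoters from RefSeq. The fits were tested on simulated data. Members and gene lists were chosen with earlier results of these data known.

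Genes named with values in each liver were the core subunits, Ndufa4 and Ndufa4l2, the 5 subunits with the largest and the 5 with the smallest fold change, the 3 assembly factors at each end, members whose groups overlapped, mitochondrially encoded subunits and assembly factors under other names. Genes outside this rule were chosen after their values were seen. One result is not reported here.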

Additional observations from a re-analysis of the deposited data

How the results depend on the processing

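The median log2 fold change of the 47 Nduf genes (0.58) kept its direction under RLE factors (0.60), upper-quartile factors (0.57), no filter (0.57), at least 10 counts in every liver (0.58), DESeq2 (0.59), the length and GC correction (0.38) and length alone (0.39), and was 0.39 to 0.74 when each liver was left out in turn, lowest without sgPrdx2 liver 3.2. Library totals gave 0.20, with 13 rather than 41 genes without overlap. Hepatocyte-marker scaling gave -0.41, with 26 genes without overlap, all lower (81.3% of all genes). Without overlap were 41 to 44 genes when each liver was left out, but with fewer livers groups separate more easily. Without sgPrdx2 liver 3.2, 42 of the 47 Nduf genes and 23.1% of all genes were higher without overlap. With all livers, the share of all genes was 16.7%. The share of all genes is not given for the other livers left out, so these counts do not show a firmer result.

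The count of Nduf genes called was 0 under edgeR, 0 in each fit that left out a liver, 17 (lower) with hepatocyte-marker scaling, 3 without a filter (Ndufa4, Ndufb9 and Ndufs5), 1 with the length and GC correction (Ndufaf1), 29 with DESeq2 and 13 at an adjusted p under 0.1. Over all genes, 567 calls became 3247 with library totals, 13447 with hepatocyte-marker scaling, 1128 without a filter, 1135 with the length and GC correction, 2048 with DESeq2 and 1767 at an adjusted p under 0.1. Leaving out 1 liver gave 0 to 619 calls over all genes, with 0 without sgCtrl liver 5.1 or 7.2 or sgPrdx2 liver 1.1 or 1.3. The cause of these differences was not tested.

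All 21 named Nduf genes were lower with hepatocyte-marker scaling: Ndufv1 -0.38, Ndufv2 -0.56, Ndufs1 -0.73, Ndufs3 -0.43, Ndufs7 -0.38, Ndufs8 -0.36, Ndufa4 -0.20, Ndufa4l2 -0.42, Ndufa13 -0.19, Ndufc1 -0.24, Ndufb2 -0.25, Ndufb9 -0.24, Ndufa8 -0.65, Ndufa9 -0.54, Ndufb4 -0.45, Ndufaf3 -0.36, Ndufaf8 -0.35, Ndufaf1 -0.44, Ndufaf4 -0.77, Ndufaf5 -0.64 and Ndufaf7 -0.60. With library totals, 5 were below 0: Ndufs1 -0.14, Ndufa8 -0.040, Ndufaf4 -0.16, Ndufaf5 -0.036 and Ndufaf7 -0.0029. The other 16 kept their direction there, and in every other setting all 21 did. No paired analysis was possible because the groups share no replicate numbers.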
